A study of Rattus norvegicus with 85 samples.

Results

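The effect of stress given to the grandmother was examined in the amygdala (AMY) of newborn second-generation (F2) rats. The samples were chosen by their labels, AMY, postnatal day 0 (P0) and F2, and comprise 13 of the 85 samples of the series. The 7 Control samples (O2-C) descend from unstressed females and the 6 PRS samples (O2-PRS) from females that underwent pre-reproductive stress (PRS), a 7-day unpredictable stress procedure in adolescence. All are Sprague-Dawley rats. According to the study's methods, the stressed or control females were mated with naïve males, and their adult sons were mated with naïve females to give the F2 pups, so the pups and their mothers were themselves never stressed. The O2-C samples come from 1 female and 6 males and the O2-PRS samples from 5 females and 1 male by the labels, whereas the study's methods speak only of males for the F2 pups. The labelled sexes are used here. The labels do not give litters, so the p-values measure the spread between these samples and cannot separate pups from litters. The amygdala was taken as tissue punches, and the primer panel holds no marker gene of the amygdala.

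A-to-I RNA editing is the deamination of adenosine to inosine in double-stranded RNA by the ADAR enzymes. Inosine is read as guanosine, so editing can change a codon, a splice site or the pairing of an untranslated region (UTR). Htr2c encodes the serotonin 2C receptor, whose edited codons lie in the part of the receptor that couples to its G protein, and more edited receptors couple less well. Sites A and B of Htr2c are mainly edited by ADAR1 (gene Adar) and site D mainly by ADAR2 (gene Adarb1). ADAR2 also edits its own transcript.

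Editing was measured by mmPCR-seq, in which cDNA is amplified with pooled primers and sequenced. The editing level of a site is the percent of its reads with G where the genome has A. The gene-specific primers below, printed 5′ to 3′, are those of the amplicons in which the clearest differences were found, and they fix which stretch of each transcript was read. The Htr2c coding amplicon holds sites A, B, C and D, and the Adarb1 amplicon holds 4 sites.
Htr2c coding sites, forward: cttagtccgcgaattgaacc
Htr2c coding sites, reverse: ggggattatgtctggccttta
Kcna1, forward: aattggacacaatgacaggtac
Kcna1, reverse: tcttcattggcgtcatactgt
Adarb1, forward: gcctcagatttgagccaaaa
Adarb1, reverse: ctgtggtgcccagaaaga
Igf1, forward: agcagtttctctctctctctct
Igf1, reverse: ttgctttgctttctcctttctc

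Reads summed over the 146 sites of the study's list ranged from 1064013 to 2763132 in O2-C and from 1893456 to 2712029 in O2-PRS, with a read counted once for each site it spans. A level was used where a site had at least 50 reads, and at most 13 sites of any sample fell short. Sample numbers used here are those of the sample labels. By the library numbers in the file names, O2-C 145 and O2-PRS 117 and 146 lie in a lower range and the other 10 samples in a higher range. The sources used here do not say whether these ranges were separate runs, and results are also given within them. Sex nearly coincides with the groups, so that sex and grandmaternal stress can be told apart only through the single O2-C female (121) and the single O2-PRS male (146).

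All 146 sites could be tested. Editing differed between the groups at 4 sites, 2.74% of those tested, by the exact Mann-Whitney U test at a false discovery rate of 0.1 after Benjamini-Hochberg adjustment over all sites. All 4 were higher in O2-PRS. They were Htr2c A, Htr2c D, the recoding site of the potassium channel Kcna1 and 1 of the 4 sites in Adarb1. At each of them every O2-PRS sample lay above every O2-C sample, and these were also the 4 sites of 146 (2.74%) without overlap. With 7 samples against 6 the smallest p that the exact test can give is 0.00117, which all 4 sites reached (adjusted p = 0.0425). Before adjustment, 9 sites (6.16%) had an exact p under 0.05 and all 9 were higher in O2-PRS. The further 5 were Igf1, Htr2c B, Htr2c C, a Dagla site and a Son site. Over all sites the median difference was 0.0405 percentage points. The mean was higher in O2-PRS at 91 sites (62.3%), lower at 54 and equal at 1, and it differed by under 1 point at 111 sites.

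**Figure D1:**
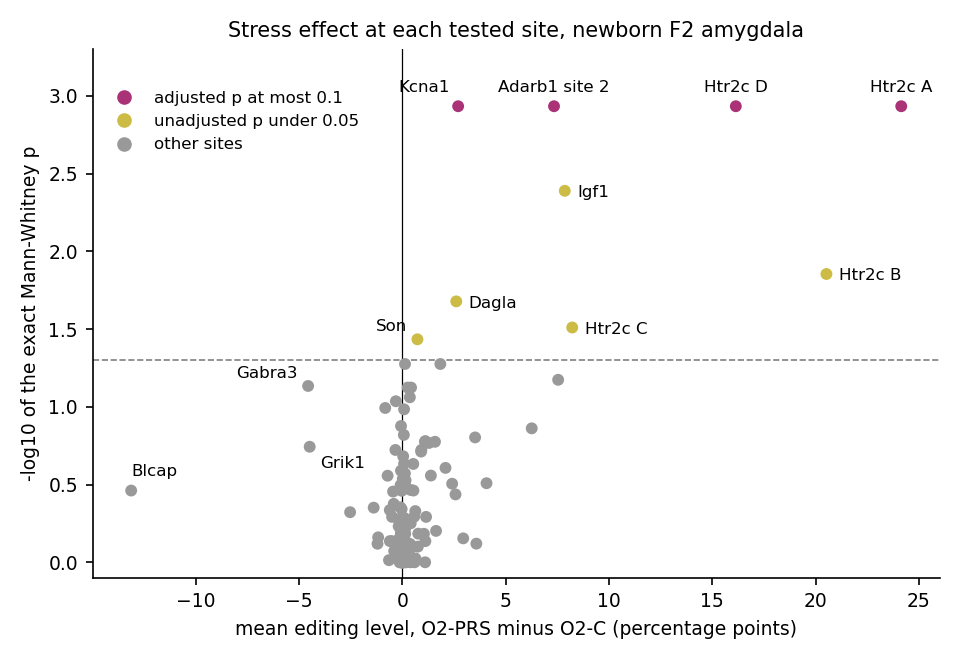
Difference in mean editing level (O2-PRS minus O2-C, percentage points, x axis) against -log10 of the unadjusted exact Mann-Whitney p (y axis) for the 146 sites, one point per site. The dashed line marks p of 0.05. The 4 purple points passed the false discovery rate of 0.1 and lie at the largest value that 7 against 6 samples allow, and all 9 sites above the dashed line lie to the right of 0. The leftmost point, Blcap, rests on 1 control sample.

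At Htr2c A (chromosome X, position 31041849 of rn4, Ile to Val), the O2-C levels had a lowest value of 27.6%, a median of 60.0% and a highest of 79.4%. The O2-PRS levels had a lowest value of 80.9%, a median of 82.8% and a highest of 85.6%. The groups did not overlap, with a gap of 1.5 points, and the O2-C samples were spread over 51.8 points against 4.7 in O2-PRS. The mean was 58.9% ± 16.8 (SD, n = 7) in O2-C and 83.0% ± 1.91 (SD, n = 6) in O2-PRS, a difference of 24.1 points. The lowest sample, O2-C 140, had 2782 edited reads of 10077 (95% Wilson interval 26.7% to 28.5%, counting error only). Without that sample the O2-C mean was 64.1% ± 10.6 (SD, n = 6) and the difference 18.9 points.

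Site D (position 31041837, Ile to Val) lies 12 bases after A in the transcript. Its lowest, median and highest levels were 22.4%, 43.2% and 49.3% in O2-C and 49.9%, 55.9% and 61.2% in O2-PRS. Every O2-PRS sample was thus above every O2-C sample, by a gap of 0.6 points. The mean was 39.7% ± 9.01 (SD, n = 7) in O2-C and 55.9% ± 3.83 (SD, n = 6) in O2-PRS.

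Sites B (position 31041847, Ile to Met) and C (position 31041842, Asn to Ser), 2 and 7 bases after A, did not pass the adjustment. B levels had a lowest value of 22.4%, a median of 49.9% and a highest of 71.9% in O2-C, against 69.0%, 71.5% and 73.5% in O2-PRS. The highest control, O2-C 145, lay among the O2-PRS samples, and the other 6 controls were below all of them (exact p = 0.0140, adjusted p = 0.340). The mean of B was 50.9% ± 16.0 (SD, n = 7) in O2-C and 71.5% ± 1.5 (SD, n = 6) in O2-PRS. At C the mean was 22.9% ± 7.59 (SD, n = 7) in O2-C and 31.1% ± 2.81 (SD, n = 6) in O2-PRS (exact p = 0.0309, adjusted p = 0.564). Each coding site had at least 7653 reads in every sample.

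**Figure D2:**
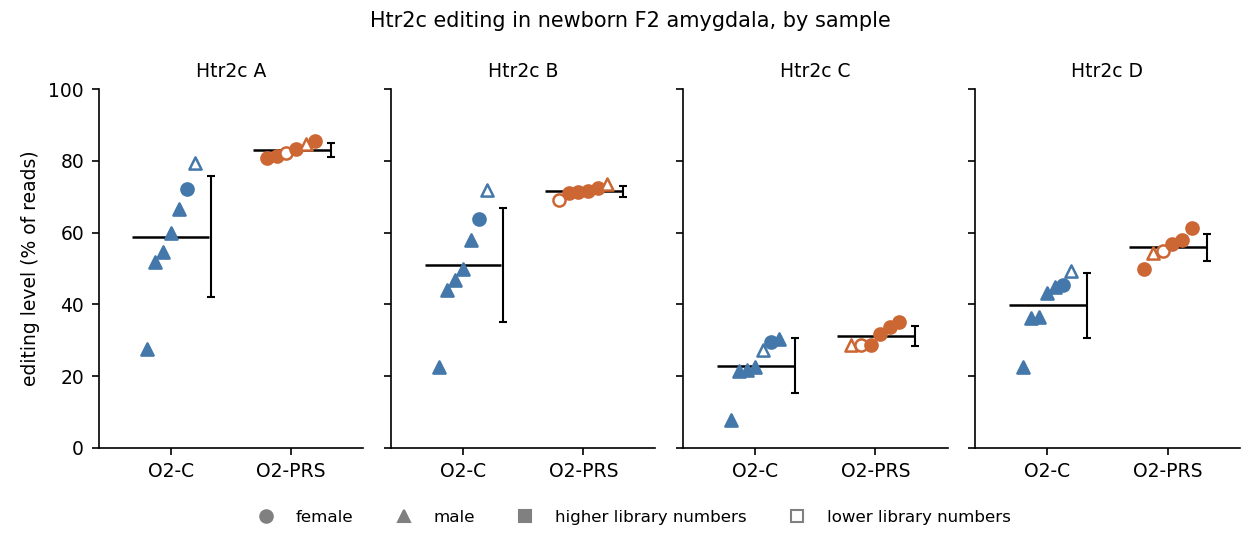
Editing level (% of reads) at the 4 Htr2c coding sites in each sample. Circles are females and triangles males, filled symbols are libraries with the higher numbers and open symbols those with the lower numbers, and the black bars give the mean ± SD. The O2-PRS samples lie within a narrow band at every site, at A between 80.9% and 85.6%, whereas the O2-C samples at A spread from 27.6% to 79.4%.

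The order of the sites was the same in all samples, A highest, then B, D and C, except that B and D were equal at 22.4% in O2-C 140. The ratio of the B level to the A level was 0.858 ± 0.0315 (SD, n = 7) in O2-C and 0.861 ± 0.0164 (SD, n = 6) in O2-PRS (exact Mann-Whitney p = 0.836). The ratio of D to A was 0.690 ± 0.0692 (SD, n = 7) and 0.674 ± 0.0592 (SD, n = 6), respectively (exact p = 0.836), and that of C to A was 0.383 ± 0.0594 (SD, n = 7) and 0.375 ± 0.0343 (SD, n = 6) (exact p = 0.731). In points, the gap between A and B was wider in O2-PRS, 11.6 ± 1.5 (SD, n = 6) against 7.93 ± 1.5 (SD, n = 7), with an exact p of 0.00466 (0.0186 after adjustment over these 4 measures). With a like ratio of B to A, a higher A level widens this gap. The gap therefore restates the difference at A and is no separate result. No difference was detected in the ratios, while the levels of A and D differed. The files give each site on its own, so the receptor isoforms that combine the sites were not analysed here.

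The 3′ UTR of Htr2c holds 2 measured sites. At the first (position 31014486) the mean was 8.54% ± 1.13 (SD, n = 7) in O2-C and 9.65% ± 1.53 (SD, n = 6) in O2-PRS (exact p = 0.166). At the second (position 31014416) it was 0.443% ± 0.0787 (SD, n = 7) and 0.467% ± 0.163 (SD, n = 6) (exact p = 1). Neither passed the test, while 2 of the 6 Htr2c sites did, beside 2.74% of all sites. The median difference of the 6 was 12.2 points, against 0.0405 over all sites. Sites A to D were read in the same amplicon, so they are not independent measurements.

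Kcna1 encodes a voltage-gated potassium channel, and editing of its recoding site is known to speed the channel's recovery from inactivation. At this site (chromosome 4, position 163012291, Ile to Val) the lowest, median and highest levels were 2.9%, 4.7% and 5.8% in O2-C and 6.00%, 6.5% and 11.1% in O2-PRS. The groups did not overlap, although only 0.2 points lay between them, and O2-PRS 116 stood above the other O2-PRS samples. The mean was 4.57% ± 0.916 (SD, n = 7) in O2-C and 7.27% ± 1.95 (SD, n = 6) in O2-PRS, a ratio of means of 1.59.

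The 4 Adarb1 sites lie within 18 bases of chromosome 20 and are annotated as 5′ UTR. They are numbered here 1 to 4 by position, from 11709472 over 11709485 and 11709486 to 11709490. Editing of the Adarb1 transcript by its own product is known to create a splice site whose use lowers the amount of active enzyme. Whether any of the 4 sites measured here creates that splice site was not tested. A further Adarb1 site, outside the study's list and annotated as intronic, had at most 28 reads in any sample. That is under the minimum of 50 reads, so its level was not used. Site 2 had a lowest level of 7.8%, a median of 10.6% and a highest of 14.5% in O2-C, and of 14.6%, 17.5% and 22.9% in O2-PRS. The groups did not overlap, but the highest control, O2-C 145, and the lowest O2-PRS sample, 120, were only 0.1 points apart, within the counting error of either. The mean was 10.6% ± 2.07 (SD, n = 7) in O2-C and 18.0% ± 2.94 (SD, n = 6) in O2-PRS, a ratio of 1.69. The neighbouring base, site 3, is covered by nearly the same reads, and its mean was 68.2% ± 5.7 (SD, n = 7) in O2-C and 68.4% ± 1.34 (SD, n = 6) in O2-PRS (exact p = 0.945). Site 1 had means of 31.3% ± 4.91 (SD, n = 7) and 37.6% ± 6.73 (SD, n = 6) (exact p = 0.138), and site 4 of 3.07% ± 1.29 (SD, n = 7) and 2.93% ± 0.692 (SD, n = 6) (exact p = 1). Of the 4 sites, 1 was thus called.

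**Figure D3:**
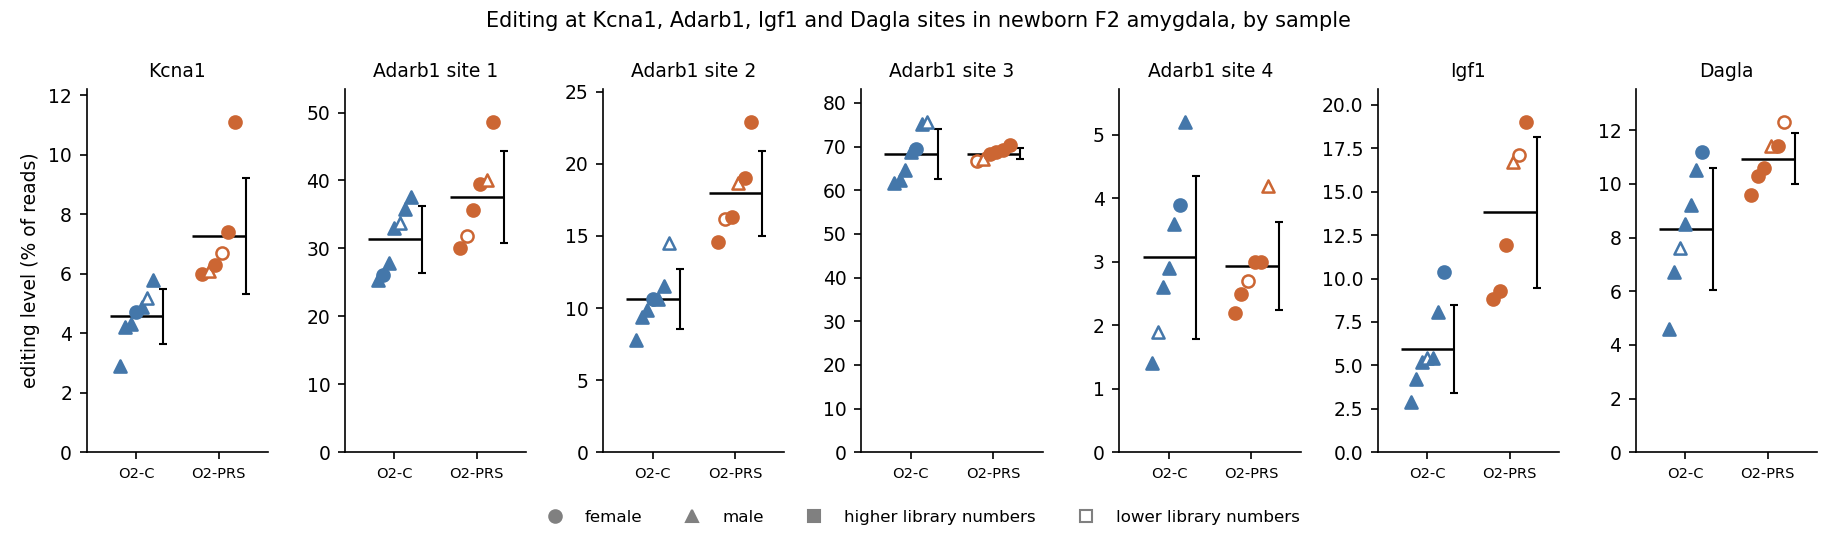
Editing level (% of reads) per sample at Kcna1, the 4 Adarb1 sites in order of position, Igf1 and Dagla, each panel on its own axis from 0. Symbols and bars are as in the plot of the Htr2c sites. Kcna1 and Adarb1 site 2 show no overlap between the groups (highest O2-C 5.8% and 14.5%, lowest O2-PRS 6.00% and 14.6%), whereas the means of Adarb1 sites 3 and 4 are nearly level.

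At the 3′ UTR site of Igf1, which encodes insulin-like growth factor 1 (chromosome 7, position 24605672), the lowest, median and highest levels were 2.9%, 5.4% and 10.4% in O2-C and 8.8%, 14.3% and 19.0% in O2-PRS. The only O2-C female had the highest control value and lay among the O2-PRS samples. The means, 5.94% ± 2.52 (SD, n = 7) and 13.8% ± 4.36 (SD, n = 6), stood in the ratio 2.32, and the site missed the threshold (exact p = 0.00408, adjusted p = 0.119). Without that female (121) the difference was 8.6 points and the site passed (exact test, adjusted p = 0.0632). She was the only control overlapping O2-PRS, so the groups then separated and the pass followed by construction. No control female was left, so this pass is no further evidence. A 3′ UTR site of Dagla, which encodes an enzyme of endocannabinoid synthesis (chromosome 1, position 212734070), had means of 8.33% ± 2.27 (SD, n = 7) and 10.9% ± 0.958 (SD, n = 6) (exact p = 0.0210, adjusted p = 0.438). A synonymous site of Son, which encodes a splicing factor (chromosome 11, position 31628529), had means of 1.02% ± 0.488 (SD, n = 6) and 1.74% ± 0.428 (SD, n = 5) (exact p = 0.0368, adjusted p = 0.597). None of these 3 passed the adjustment.

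The other edited neurotransmitter receptors were measured in the same libraries, and none of their sites was called. Of the 10 AMPA receptor sites (Gria2, Gria3 and Gria4), 0 passed the test even before adjustment, beside 6.16% of all sites. Among so few sites a count of 0 lies near that share. Of the 10, 7 were higher and 3 lower, with a median difference of 0.00952 points. The Q/R site of Gria2, whose editing makes the channel impermeable to calcium, was at 99.6% ± 0.125 (SD, n = 7) in O2-C and 99.6% ± 0.103 (SD, n = 6) in O2-PRS. The R/G sites, which set how fast the channel recovers from desensitisation, did not pass the test either. That of Gria2 was at 45.5% ± 5.44 (SD, n = 7) and 46.6% ± 8.02 (SD, n = 6), that of Gria3 at 64.2% ± 6.12 and 63.0% ± 6.09, and that of Gria4 at 33.0% ± 2.63 and 31.7% ± 4.15.

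Of the 7 kainate receptor sites (Grik1 and Grik2), 0 were called, beside 2.74% of all sites, which is near that share for so few sites. Of the 7, 4 were higher, with a median difference of 0.569 points. The Q/R site of Grik2 was at 81.3% ± 2.82 (SD, n = 7) in O2-C and 82.9% ± 3.76 (SD, n = 6) in O2-PRS, and the I/V site at 54.7% ± 5.65 and 58.2% ± 11.4. The Grik1 site, at 28.8% ± 7.48 (SD, n = 7) and 24.3% ± 7.1 (SD, n = 6), was lower in O2-PRS (exact p = 0.181). So was Gabra3, a GABA-A receptor subunit (chromosome X, position 158405626, Ile to Met), at 61.3% ± 2.79 (SD, n = 7) and 56.7% ± 4.46 (SD, n = 6), which had the smallest p of the sites that were lower (exact p = 0.0734, adjusted p = 0.732). The 3 sites of the calcium channel Cacna1d differed by at most 1.38 points (smallest exact p = 0.277). Of the 29 sites that the study lists as related to learning and stress, 3 passed the adjustment and 5 had an unadjusted p under 0.05, all higher in O2-PRS, against 1 and 4 of the 117 sites outside that list and 2.74% and 6.16% of all sites. The difference between the lists was not tested. Since the study drew attention to that list on these samples, its count is no independent evidence.

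By genic class, 3 of the 41 nonsynonymous sites and 1 of the 6 5′ UTR sites were called, and 0 of 74 3′ UTR sites and 0 of 16 synonymous sites, beside 2.74% over all sites. At an unadjusted p under 0.05 these counts were 5, 1, 2 and 1. The classes differ by a few calls and the difference between them was not tested. Of 37 clustered 3′ UTR sites, among them 20 in Ankrd28, 0 were called, and 19 were higher and 18 lower. At Plekhd1 (chromosome 6, position 104488036, chosen after its values were seen) O2-PRS 117 and 116 reached 22% and 20.9%, while the other 4 O2-PRS samples ranged from 0.4% to 4.7% and the controls from 0.1% to 4.5% (exact p = 0.0670, adjusted p = 0.732).

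The lowest difference of all sites, -13.1 points, was at a recoding site of Blcap (chromosome 3, position 148267329, Lys to Arg, also chosen after its values were seen). It rests on O2-C 145, in which 16158 of 17480 reads were edited (92.4%). The other 6 controls ranged from 0.3% to 3.1% and the O2-PRS samples from 0.7% to 2.2%. Without O2-C 145 the difference was -0.133 points. In the same library the other 2 Blcap sites were at 7.1% and 9.3%. Among the 71 brain samples of the series with at least 50 reads at this site, 4 exceeded 10% and the median was 1.3%.

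Averaged over the 129 sites with at least 50 reads in all 13 samples, editing was 8.8% ± 0.920 (SD, n = 7) in O2-C and 9.71% ± 0.622 (SD, n = 6) in O2-PRS. The difference of 0.912 points missed the threshold of 0.05 (exact permutation p = 0.0670). Without O2-C 145, which had the highest mean of the controls (10.5%), it was 1.19 points (exact permutation p = 0.00866), and without O2-PRS 120 it was 1.08 points (exact permutation p = 0.0404). The mean of O2-C 145 includes its Blcap level of 92.4%, here and over the 123 sites outside Htr2c. Without the 6 Htr2c sites the means were 7.75% ± 0.648 (SD, n = 7) and 8.14% ± 0.646 (SD, n = 6) over 123 sites (exact permutation p = 0.295). The mean over the 35 nonsynonymous sites outside Htr2c was 0.0754 points lower in O2-PRS, 18.8% ± 1.63 (SD, n = 6) against 18.9% ± 1.83 (SD, n = 7) (exact permutation p = 0.946). This direction rests on the Blcap site of O2-C 145, and over the other 34 sites the mean was 0.309 points higher in O2-PRS. The mean over 60 3′ UTR sites was 2.2% ± 0.212 (SD, n = 7) in O2-C and 2.66% ± 0.335 (SD, n = 6) in O2-PRS (exact permutation p = 0.0128), although none of those sites was called by itself. The median difference of these 60 sites was 0.025 points, with 38 higher and 22 lower. The 4 sites with the largest differences, Igf1, the Dagla site and the Plekhd1 sites at 104488036 and 104487148, the last named only for its size, made up 21.5 of the summed 27.7 points. Over the other 56 sites the difference was 0.110 points.

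Within O2-C, A rose with B and D from sample to sample. A level and B level correlated over the 7 samples with r = 0.997 (exact permutation p = 0.000198, adjusted p = 0.00278 over 14 relations) and rho = 1, and A and D with r = 0.973 (exact permutation p = 0.000992, adjusted p = 0.00648) and rho = 0.964 (exact permutation p = 0.00278). A and C gave r = 0.922 (exact permutation p = 0.00873, adjusted p = 0.0244) but rho = 0.714 (exact permutation p = 0.0881). Within O2-PRS only the relation of A and D passed the false discovery rate of 0.1 by r, and none of these relations passed by rho. There A and B gave r = 0.633 (exact permutation p = 0.169) and rho = 0.771 (exact permutation p = 0.103), and A and C r = 0.0561 (exact permutation p = 0.931) and rho = -0.0580 (exact permutation p = 0.933). A and D ran in opposite directions in O2-PRS, with r = -0.828 (exact permutation p = 0.0361, adjusted p = 0.0722) and rho = -0.829 (exact permutation p = 0.0583), and r = -0.439 without the 2 farthest samples. A also correlated with Adarb1 site 2 within O2-C, with r = 0.888 (exact permutation p = 0.0135, adjusted p = 0.0315) and rho = 0.937 (exact permutation p = 0.00476). Among the 6 controls with the higher library numbers this r was 0.936, and without the 2 samples farthest from the median A level it was 0.775. Within O2-PRS, over 6 samples whose A levels span 4.7 points, A and Adarb1 site 2 gave r = 0.916 (exact permutation p = 0.00694, adjusted p = 0.0243) and rho = 0.886 (exact permutation p = 0.0333), and r = 0.895 without the 2 farthest samples. The mean level of the 123 sites outside Htr2c followed A in both groups by rank, with rho = 0.929 (exact permutation p = 0.00675) in O2-C and rho = 1 (exact permutation p = 0.00278) in O2-PRS. The corresponding r was 0.694 (exact permutation p = 0.0986) in O2-C and 0.940 (exact permutation p = 0.00139, adjusted p = 0.00648) in O2-PRS, and without the 2 farthest samples it was 0.679 and 0.685. Among the 6 controls with the higher library numbers it was 0.550, and the O2-PRS samples of either range were too few for a value. The relation of A and Kcna1 passed in neither group. It gave r = 0.496 (exact permutation p = 0.246, adjusted p = 0.313) and rho = 0.714 (exact permutation p = 0.0881) in O2-C. In O2-PRS it gave r = 0.679 (exact permutation p = 0.0764, adjusted p = 0.134) and rho = 0.543 (exact permutation p = 0.297). No relation passed the test between the reads at A and its level, with r = 0.304 (exact permutation p = 0.501) and rho = 0.214 (exact permutation p = 0.662) in O2-C and r = -0.155 (exact permutation p = 0.746) and rho = 0.0286 (exact permutation p = 1) in O2-PRS.

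**Figure D4:**
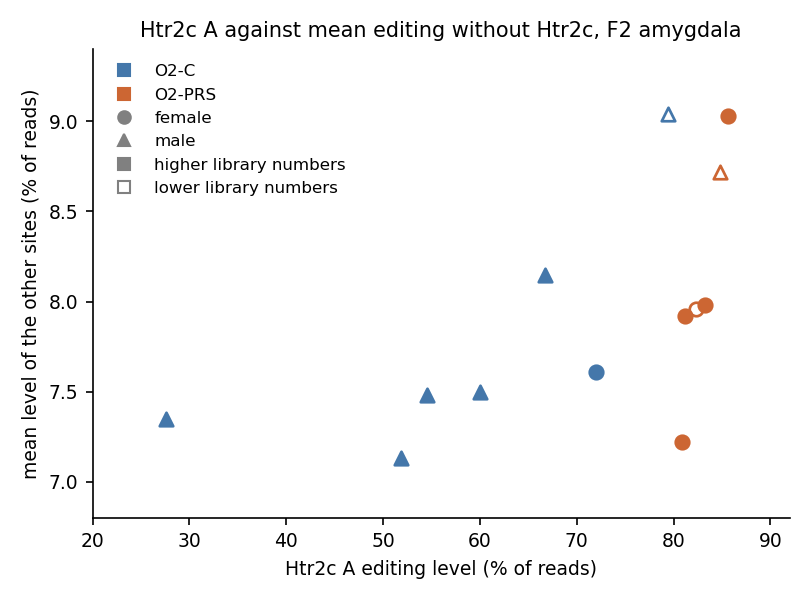
Htr2c A level (x axis, % of reads) against the mean level of the 123 sites outside Htr2c (y axis, % of reads), one symbol per sample, with symbols for sex and library-number range as in the plot of the Htr2c sites. Within each colour the mean rises with A by rank (rho 0.929 in O2-C and 1 in O2-PRS), while the groups overlap on the y axis and not on the x axis. The mean of O2-C 145, the open blue symbol, includes its Blcap level of 92.4%.

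Sex was set beside the comparison in several ways. Among females, the 5 O2-PRS samples were all above the single O2-C sample at Htr2c A (80.9% to 85.6% against 72.0%), at D (49.9% to 61.2% against 45.5%), at Kcna1 (6.00% to 11.1% against 4.7%) and at Adarb1 site 2 (14.6% to 22.9% against 10.6%). Among males, the single O2-PRS sample was above all 6 O2-C samples at A (84.8% against at most 79.4%), at D (54.3% against at most 49.3%), at Kcna1 (6.1% against at most 5.8%) and at Adarb1 site 2 (18.7% against at most 14.5%). With sex as a term the differences were 19.5 points at A, 13.1 at D, 2.17 at Kcna1 and 7.65 at Adarb1 site 2. Labels permuted within sex allow 42 arrangements and a smallest p of 0.0238. No site passed the adjustment, 3 sites had an unadjusted p under 0.05, and the exact permutation p was 0.143 at A, 0.0476 at D, 0.119 at Kcna1 and 0.0238 at Adarb1 site 2. By ranks within sex, which was added once the data had been seen, the exact permutation p was 0.0476 at each of these sites. Since the groups do not overlap at these sites, the separation within each sex and this rank p follow by construction. They are no further evidence on sex. Females and males of other groups were compared within treatment. In the F1 amygdala 18 of 139 sites had an unadjusted exact permutation p under 0.05 between the sexes, and in the F2 prefrontal cortex (PFC) 6 of 133, with 0 past the adjustment in either. In the F2 PFC all females lie in the higher library-number range and all males in the lower, so that sex and range cannot be told apart there. In the F1 amygdala all males lie in the same range and most females in other ranges. At A females were 4.48 points higher than males in the F1 amygdala (exact permutation p = 0.32) and 7.74 points higher in the F2 PFC (exact permutation p = 0.349). At Adarb1 site 2 the differences were 0.0852 points (exact permutation p = 0.975) and -6.33 points (exact permutation p = 0.0381, adjusted p = 0.732), the latter with females lower. At D females minus males gave -0.844 points (exact permutation p = 0.840) and 5.56 points (exact permutation p = 0.521), and at Kcna1 0.252 points (exact permutation p = 0.895) and -0.178 points (exact permutation p = 0.867).

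Within the library-number ranges the sizes of the differences varied. Among the 10 samples with the higher numbers, 6 O2-C and 4 O2-PRS, the difference was 27.3 points at A, 18.4 at D, 3.23 at Kcna1 and 8.23 at Adarb1 site 2, without overlap at these sites (exact p = 0.00952, 0.00952, 0.00952 and 0.00476, of which none passes the adjustment). The groups do not overlap at these sites over all samples, so the lack of overlap within the range was bound to follow. With 6 against 4 samples complete separation of untied values gives p = 0.00952 by the exact test, which passes over 146 sites only where about 14 sites reach it, so that a loss of the calls was set by the sample number. Among the 3 samples with the lower numbers the O2-C sample had 79.4% at A against 82.3% and 84.8% in O2-PRS, 71.9% at B against 69.0% and 73.5%, and 49.3% at D against 54.3% and 54.8%. With the range as a term, D, Kcna1 and Adarb1 site 2 passed the false discovery rate (adjusted p = 0.0772, exact permutation) and A, at 22.3 points, did not (exact permutation p = 0.00635, adjusted p = 0.185).

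The reads of each amplicon, as a share of the sample's reads, were examined as a further readout of the same libraries. By the exact Mann-Whitney U test 0 of 146 sites (0.0%) passed the adjustment and 8 (5.48%) had an unadjusted p under 0.05. Without O2-C 145 these counts were 4 and 26, and without O2-PRS 118 the unadjusted count was 14. Amplicons of choroid plexus and meninges (Htr2c and Igf2) took 4.98% to 6.94% of the reads in O2-C and 4.66% to 5.41% in O2-PRS (medians 5.11% and 5.17%, exact p = 0.836), and 0 of their 7 sites had an unadjusted p under 0.05. Htr2c is made in both neurons and choroid plexus, and the panel holds no transcript made only in choroid plexus, so the share of that tissue in the punches was not tested. Amplicons of 6 neuronal genes took 7.01% to 9.96% in O2-C and 6.98% to 9.64% in O2-PRS (medians 7.44% and 7.73%, exact p = 0.945). Those of microglia and macrophages (Mpeg1 and Entpd1) took 1.23% to 1.89% in O2-C and 1.22% to 1.89% in O2-PRS (exact p = 0.836), those of endothelium 0.266% to 0.558% in O2-C and 0.289% to 0.403% in O2-PRS (exact p = 1), and the astrocyte amplicon Htra1 0.00114% to 0.817% and 0.437% to 0.876% (exact p = 0.366). Some of these shares went with the library-number range. In O2-C 145 and O2-PRS 117 and 146, of the lower range, the endothelial amplicon Slco2a1 took 0% of the reads. Igf2 took 1.21% to 1.70% in these samples and 0.695% to 0.981% in the others. Htra1 did not reach 50 reads in every sample. Shares of multiplexed PCR products are not transcript levels, and in punches fewer cells of a type and less RNA per cell cannot be told apart.

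The preceding generation was measured in the same region, in 5 O1-C and 6 O1-PRS samples of newborn offspring (F1) of the stressed or control females themselves. By the labels the O1-C samples come from 2 females and 3 males and the O1-PRS samples from 3 females and 3 males. There Htr2c A was at 82.0% ± 7.97 (SD, n = 5) in O1-C and 74.6% ± 5.92 (SD, n = 6) in O1-PRS, a difference of -7.43 points (exact p = 0.126). The difference between the stress effects of the generations was 31.6 points at A, 27.3 at B and 9.85 at Adarb1 site 2, and these 3 of 146 sites (2.05%) passed the false discovery rate (adjusted p = 0.0678, exact permutation of the treatment labels within each generation). Labels were permuted without regard to sex, which nearly coincides with treatment in F2 but not in F1. The part of sex in these differences was not tested. At B the F1 means were 72.0% ± 7.85 (SD, n = 5) and 65.3% ± 4.97 (SD, n = 6), and at Adarb1 site 2 they were 14.8% ± 3.11 and 12.3% ± 3.63, so that at all 3 sites the mean was lower in PRS in F1 and higher in F2. The 3 calls lie close to the threshold. Leaving out each of the 24 samples in turn, A kept its call in 16 cases, Adarb1 site 2 in 12 and B in 11, with adjusted p from 0.0107 to 0.152 over the 3 sites. The difference at A itself stayed between 26.4 and 35 points. The 8 samples without which the call at A was lost were O2-PRS 115, 116, 117 and 146, O1-C 46 and 56, and O1-PRS 50 and 53 (31.5, 31.1, 31.7, 31.2, 30.3, 30.1, 31.1 and 29.8 points, respectively).

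At D the mean was higher in PRS in both generations. In F1 it was 46.6% ± 8.82 (SD, n = 5) in O1-C and 56.8% ± 6.06 (SD, n = 6) in O1-PRS. This F1 difference did not pass the test (exact Mann-Whitney p = 0.0823, adjusted p = 0.544). The effects of the generations differed by 6.01 points (exact permutation p = 0.470, adjusted p = 0.852). Kcna1 was at 4.86% ± 1.15 (SD, n = 5) in O1-C and 4.6% ± 2.84 (SD, n = 6) in O1-PRS, and the effects differed by 2.96 points (exact permutation p = 0.0848, adjusted p = 0.590). Between the control groups, A was 23.1 points lower in O2-C than in O1-C (exact p = 0.0101, adjusted p = 0.233). Between the PRS groups, A was 8.45 points higher in O2-PRS than in O1-PRS without overlap (exact p = 0.00216, adjusted p = 0.316). No site passed the false discovery rate in either of these comparisons (0.0% of 146 in each). None of the 11 F1 libraries lies in the higher library-number range, which holds 10 of the 13 F2 libraries. The control groups share 1 range, with 1 sample each, and the PRS groups share none, so generation and library range cannot be told apart in these comparisons.

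**Figure D5:**
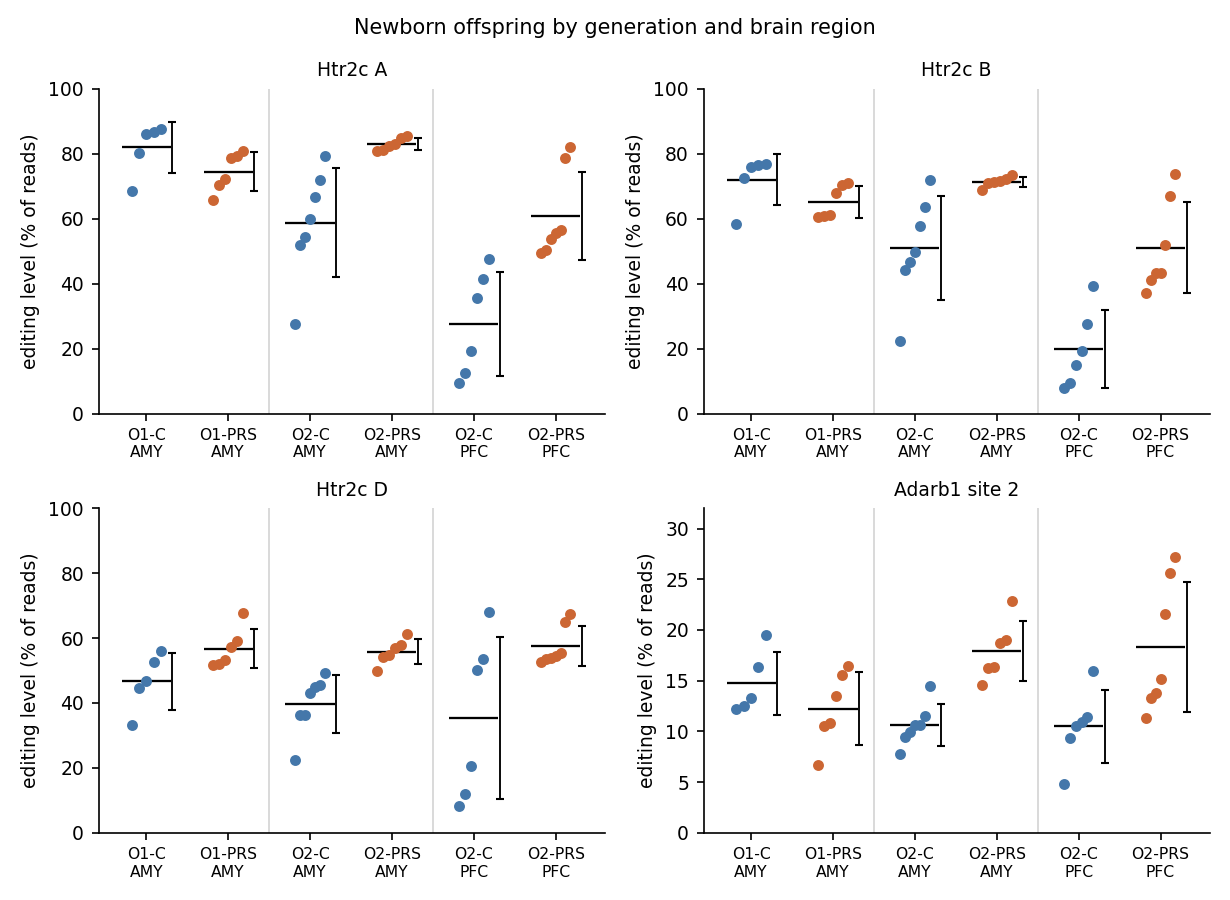
Editing level (% of reads) per sample at Htr2c A, B and D and at Adarb1 site 2 in newborn F1 amygdala (left), F2 amygdala (middle) and F2 PFC (right), controls in blue and PRS in orange, with the mean ± SD. At A the mean is 82.0% and 74.6% in the F1 groups, 58.9% and 83.0% in F2 amygdala, and 27.6% and 61.0% in F2 PFC. The Adarb1 panel has its own axis.

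In the PFC of newborn F2 rats, 6 O2-C and 7 O2-PRS samples were compared, after 1 control (155) with under 50 reads at 35.6% of the sites was left out as the study's filter requires. PFC and AMY samples may come from the same pups, which the labels do not show. In the PFC, too, sex and library range were uneven, with 2 females and 4 males in O2-C and 5 females and 2 males in O2-PRS, and with 4 of 6 O2-C but 2 of 7 O2-PRS libraries in the lower range. Htr2c A was at 27.6% ± 16.0 (SD, n = 6) in O2-C and 61.0% ± 13.6 (SD, n = 7) in O2-PRS (exact p = 0.00117, adjusted p = 0.0828), and Adarb1 site 2 was at 10.5% ± 3.61 and 18.3% ± 6.42 (exact p = 0.0221, adjusted p = 0.222). The stress effect in the amygdala was 9.25 points smaller at A (exact permutation p = 0.57) and 0.467 points smaller at Adarb1 site 2 (exact permutation p = 0.919) than in the PFC. Of the 142 sites tested in both regions, 0 (0.0%) differed in their stress effect after adjustment and 6 had an unadjusted exact permutation p under 0.05. With the wide spread of the PFC samples, whose SD at D was 25 points in O2-C, this does not show that the effects were equal.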

How the data were processed

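RNA editing was measured by mmPCR-seq on punches of newborn rat brain. Per the study's methods, the authors combined 76-base paired-end reads and mapped them to rn4 with BWA (and SAMtools, per the submitters' processing notes), allowing 9 mismatches per read. The deposited files give, for 179 sites in each sample, counts of total and edited reads, together with their ratio, a fraction that the authors rounded to 3 decimals. Levels are the deposited fraction in percent. Levels resting on fewer than 50 reads, which the files still list, were dropped as the authors did. Tests covered the 146 sites of the study's list that had 3 such samples a group. The 95% Wilson interval of a level of 50% at that minimum runs from 36.6% to 63.4%. Intervals cover counting error only, because PCR reads without molecular identifiers are not independent molecules.

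Groups follow the labels. The Mann-Whitney U test was two-sided and exact over all 1716 splits, with Benjamini-Hochberg adjustment over all sites and a false discovery rate of 0.1. Means, effects with sex or library-number range (blocks of 48 consecutive numbers) as a term, and differences of effects were tested by exact two-sided permutation. Alternatives were a permutation test of means, adjustment by class, a false discovery rate of 0.05, minimums of 200 reads or 1 read, sites measured in all 13 samples, sites with a mean of at least 1%, all listed sites, pooled reads, the PFC control kept, the logit scale (0.1% to 99.9%) for differences of effects, and each sample left out. Sites named in the text are the Htr2c sites, every called site, sites with an unadjusted p under 0.05, and fixed receptor, channel and enzyme sites. Members, lists and tests were chosen with earlier results of these data known. Any 2 libraries of a group differed by more than counting error computed as if reads were independent molecules. As they are not, PCR noise and differences between samples cannot be told apart by this. The tests were tried on simulated data. Primer sequences are from the study's supplement, and no sequence context of the sites is given because a genome of this build was not used here. Software was Python 3.11.15 with scipy 1.17.1, numpy 2.4.6 and pandas 2.3.3, and figures were drawn with matplotlib 3.10.9.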

Additional observations from a re-analysis of the deposited data

Results flagged for a closer look

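A sample far from the others was found in 7 of 72 groups of values, those of the named sites and of mean editing, where chance flags about 1 in 20 groups. The Blcap site, given here as well, was chosen for its outlying value and is not among them. O2-C 145 stood at 92.4% at the Blcap site at position 148267329, with the next control at 3.1%. O2-C 140 stood at 7.8% at Htr2c C, below the next at 21.3%. O2-PRS 116 stood at 11.1% at Kcna1, above the next at 7.4%, and O2-PRS 146, the only male, at 37.9% at Grik1, above the next at 25.1%. The other 4 were at sites with levels under 1%. They were O2-PRS 118 at 0.7% at a Gria3 site and at 0.7% at Grik2 E, O2-C 140 at 0.6% at Gria3 K and O2-C 121 at 0.4% at Gria4 L.

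The stress effect differed between F2 and F1 amygdala at 3 sites (exact permutation, adjusted p = 0.0678 each), by 31.6 points at Htr2c A, 27.3 points at Htr2c B and 9.85 points at Adarb1 site 2. Sex nearly coincides with treatment in F2 but not in F1, and the permutation did not take it into account.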

How the results depend on the processing

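No paired analysis was possible because each sample number occurs in 1 group only. When each of the 13 samples was left out there were 4 to 5 calls. The 4 sites stay separated whichever sample is dropped, so that they keep their calls by construction and this says nothing of their stability. The further call was Igf1 without O2-C 121 or Htr2c B without O2-C 145, each on leaving out its only overlapping control. It too followed by construction. There were 7 to 11 sites with an unadjusted p under 0.05. Over these left-out samples the differences ranged from 18.9 to 27.6 points at Htr2c A, 15.8 to 24.0 at B (called without O2-C 145), 5.70 to 9.43 at C, 13.3 to 17.7 at D, and 0.729 to 1.19 for mean editing. Adarb1 site 2 missed the threshold when nonsynonymous and other sites were adjusted separately (adjusted p = 0.122, exact), and Igf1 passed it among sites with a mean of at least 1% (adjusted p = 0.0710, exact). Every alternative kept the direction of the 9 sites with an unadjusted p under 0.05. The count of called sites was 2 with pooled reads, and 0 with sex as a term, with ranks within sex (chosen after the data were seen) and in the samples with the higher library numbers. With 42 arrangements within sex, or 6 against 4 samples, about 35 and 14 sites would have to reach the smallest p. These counts were thus bound to fall. Htr2c A, Htr2c D and Kcna1 also lay above the smallest p with sex as a term. With sex as a term 3 sites had an unadjusted p under 0.05. Htr2c A was not called with the permutation test of means (24.1 points, adjusted p = 0.102), with pooled reads (22.2), with sex as a term or ranks within sex (19.5), with the library-number range as a term (22.3) or in the higher range alone (27.3), and D was not called with pooled reads (15.8), with sex as a term or ranks within sex (13.1) or in the higher range (18.4). Mean editing passed 0.05 with no coverage minimum (0.908 points, exact permutation p = 0.0373) and as a median over sites (0.310 points, exact permutation p = 0.0367). The cause of the other changes was not tested. The differences of effects against F1 ranged over left-out samples from 26.4 to 35 points at A, 22.5 to 30.8 at B, 6.99 to 10.7 at C, 3.12 to 9.37 at D and 8.66 to 10.7 at Adarb1 site 2. Against the PFC they ranged from -14.5 to -5.59 at A, -15.6 to -7.05 at B, -8.21 to 0.765 at C, -12.6 to -0.581 at D and -1.63 to 1.02 at Adarb1 site 2. The count of sites whose read share passed the false discovery rate ranged from 0 to 4. Each Htr2c coding site had at least 7653 reads in every sample, although reads are not independent molecules. The Htr2c results are limited by 13 samples and by the near coincidence of sex and group.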
